A study of Mus musculus with 24 samples.

Results

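The genes described here are Trim34a and its relatives Trim30a, Trim21 and Trim25, 4 members of the tripartite motif (TRIM) family, in mouse lung. The members were chosen by symbol, with Trim34a taken because its signal was already known to differ widely between strains, and all probe sets annotated to these symbols were read. They had 9 probe sets annotated to 1 gene alone (2 for Trim34a, 2 for Trim30a, 2 for Trim21 and 3 for Trim25) and 3 annotated also to a neighbouring gene (2 to Trim34b and 1 to Trim30d), and the 4 genes stand among 12393 genes with a probe set of their own. The array was the Affymetrix Mouse 430A, on which a probe set is a handful of short DNA probes for one stretch of a transcript. Of the 9 probe sets, 8 were among the brightest 60% of the array, the exception being the dimmer Trim34a probe set.

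Total RNA came from lungs of untreated male mice of 8 weeks from the Jackson Laboratory. The 24 arrays held 2 of each of 9 BXH recombinant inbred (RI) strains (BXH2, BXH4, BXH6, BXH7, BXH8, BXH9, BXH10, BXH14 and BXH19), 2 of the F1 hybrid labelled BXHF1, 2 of the C3H/HeJ progenitor (C3) and 2 of the C57BL/6J progenitor (B6). An RI strain is inbred from the cross of both progenitors and carries at most loci the allele of one of them in both copies, whereas the F1 carries one of each. C3H/HeJ mice are known for an inactive allele of Tlr4, the lipopolysaccharide receptor, and the labels do not say which RI strains carry it. Whether the pair of arrays from one strain stands for separate animals is not stated in the labels, so the p-values rest on a spread between samples that may be technical.

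TRIM proteins are mostly E3 ubiquitin ligases, built of a RING domain, B-box zinc fingers and a coiled coil, and many end in a SPRY domain that binds the target. Several act in innate immunity: Trim21 is the cytosolic antibody receptor that sends antibody-coated virus to the proteasome, Trim25 ubiquitinates the RNA sensor RIG-I, and Trim30a restrains Toll-like receptor signalling to NF-kB through the TAB adaptors of the kinase TAK1. Trim34a is a mouse counterpart of human TRIM34, which in human cells is interferon-inducible and lies in a gene cluster with TRIM5, a factor that binds retroviral capsids. The mouse cluster is on chromosome 7 and has been expanded by duplication, so that Trim34a and Trim34b, or Trim30a and Trim30d, are near copies.

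In the RefSeq gene order of chromosome 7 (assembly GRCm38.p6), Trim21 lies 133 genes before Trim34a, and Trim30a 13 genes after it. Trim12a, Trim34b and Trim30d lie 4, 7 and 15 genes after Trim34a. Trim25 is on chromosome 11. The promoters of the cluster are shown because many interferon-induced genes carry an interferon-stimulated response element near their start. The window holds 250 bases before and 50 bases after the annotated start, from RefSeq with build GRCm38.p6, a C57BL/6J sequence, and each is written 5′ to 3′ along the gene. Capitals mark matches, on either strand, to the core of such an element, taken as GAAA, any 2 bases and GAAA again. The Trim34a window is chr7:104244207-104244506 on the plus strand, that of Trim12a chr7:104315446-104315745 on the minus strand, the first of 2 for Trim30a chr7:104465144-104465443 on the minus strand, and that of Trim21 chr7:102565433-102565732 on the minus strand.
Trim34a: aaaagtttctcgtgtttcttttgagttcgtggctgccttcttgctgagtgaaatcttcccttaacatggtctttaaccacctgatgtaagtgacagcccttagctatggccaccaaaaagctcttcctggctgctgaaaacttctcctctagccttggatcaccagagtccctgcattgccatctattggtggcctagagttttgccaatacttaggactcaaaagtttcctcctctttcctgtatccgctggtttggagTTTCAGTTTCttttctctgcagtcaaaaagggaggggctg
Trim12a: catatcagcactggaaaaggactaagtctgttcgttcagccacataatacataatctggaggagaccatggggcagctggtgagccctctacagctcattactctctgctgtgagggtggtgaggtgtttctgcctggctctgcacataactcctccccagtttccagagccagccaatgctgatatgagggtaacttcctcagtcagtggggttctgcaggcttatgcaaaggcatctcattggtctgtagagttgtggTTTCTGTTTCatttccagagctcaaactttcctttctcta
Trim30a: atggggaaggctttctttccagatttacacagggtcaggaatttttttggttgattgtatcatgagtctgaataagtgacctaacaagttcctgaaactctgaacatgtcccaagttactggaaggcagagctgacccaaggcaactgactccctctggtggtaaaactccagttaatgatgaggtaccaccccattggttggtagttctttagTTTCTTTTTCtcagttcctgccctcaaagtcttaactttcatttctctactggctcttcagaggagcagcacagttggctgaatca
Trim21: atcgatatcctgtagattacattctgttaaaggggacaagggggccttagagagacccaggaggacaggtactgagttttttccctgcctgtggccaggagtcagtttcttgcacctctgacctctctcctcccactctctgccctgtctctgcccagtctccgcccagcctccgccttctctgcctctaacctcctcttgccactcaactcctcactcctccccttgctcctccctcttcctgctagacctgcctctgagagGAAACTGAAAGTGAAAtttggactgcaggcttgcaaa
The Trim34a and Trim12a windows each had 1 match, which began 10 bases after the first transcribed base in both. The Trim30a match had 26 bases between it and the start, and at its second annotated start, 1 match began 2 bases after the first transcribed base. In Trim21 there were 2 matches that overlapped each other. The Trim25 window, chr11:88999153-88999452 on the plus strand, had no match to these letters, and in the cluster the windows of Trim34b, Trim6, Trim30b and Trim30c had none. The motif was found in 3.44% of 32851 promoter windows of the same length, and the windows of Trim30d and Trim12c, a copy of Trim12a, held 1 each. A match is a description of letters, and binding there was not measured.

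Trim34a was read most strongly by probe set 1424857_a_at, and its values describe how it was chosen and carry no test. The signal, a linear intensity as the authors deposited it, was 993.3 and 758.1 in BXH2, 1090.5 and 991.5 in BXH7, 843.6 and 1140.8 in BXH14, and 1109 and 1059 in BXH19. It was 126.1 and 86.8 in BXH4, 38.5 and 89.3 in BXH6, 26.6 and 76.2 in BXH8, 65.3 and 126.6 in BXH9, and 123 and 27.4 in BXH10. The F1 had 353.1 and 357.5, the C3 lungs 125.6 and 133.7, and the B6 lungs 995.7 and 792.5. Every array of the 4 strains named first had 758.1 or more and every array of the other 5 RI strains 126.6 or less, and both F1 arrays lay in the gap between them.

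**Figure D1:**
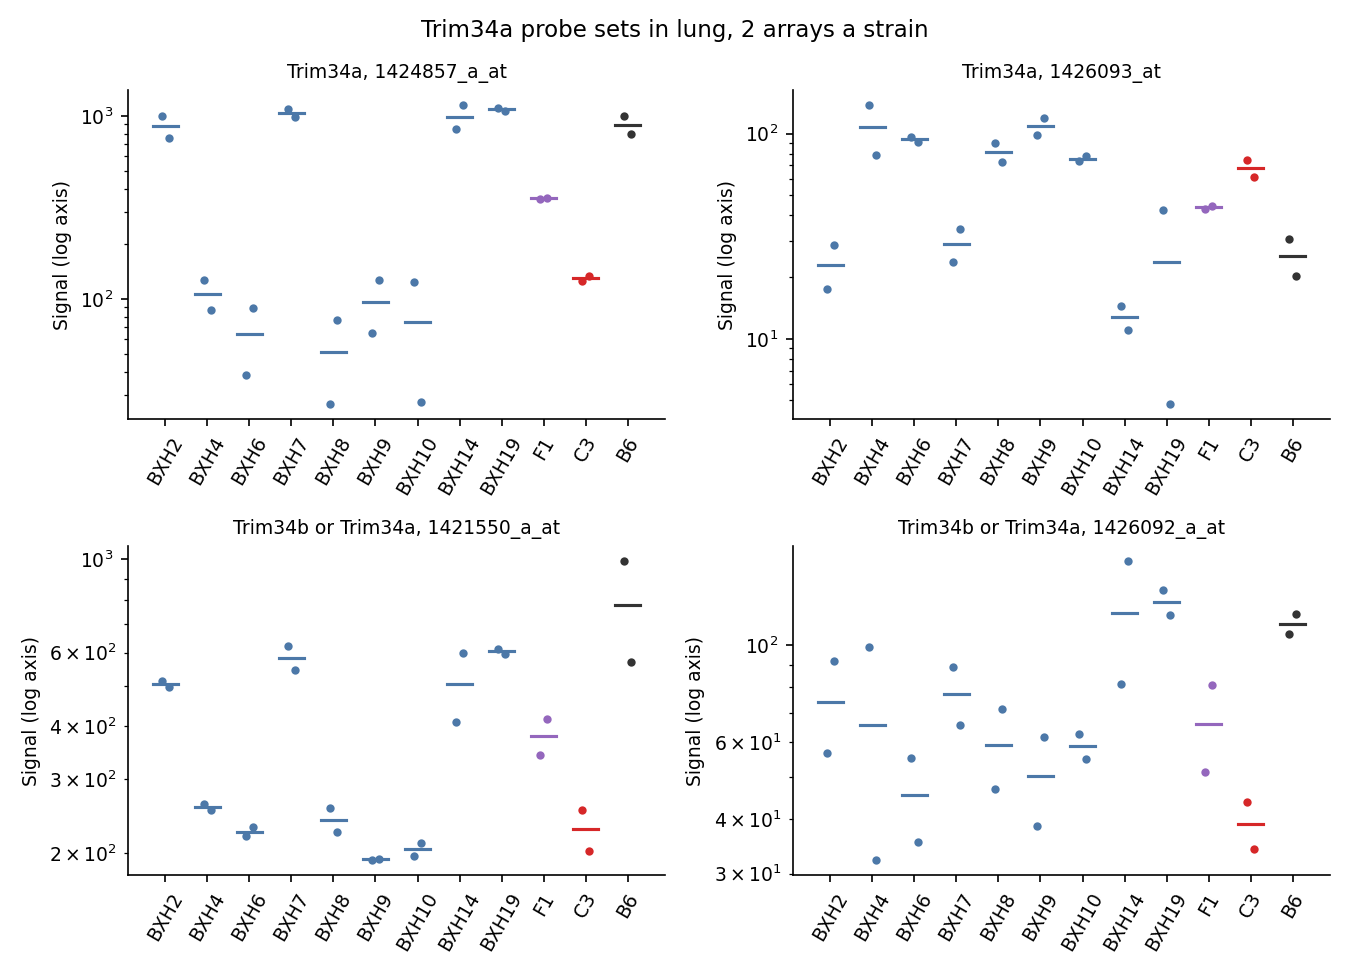
Signal of the 4 probe sets that read Trim34a, 2 of them shared with Trim34b, in every strain (log axes, points are arrays, bars are strain means of 2 arrays). On 1424857_a_at both F1 arrays, at 353.1 and 357.5, lie between the high and the low strains, and on the dim 1426093_at the high and low strains trade places.

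Mean signal was 129.6 ± 5.73 in C3 and 894.1 ± 143.7 in B6 (SD, n = 2 each), a difference of -2.64 (SE 0.45) for C3 minus B6 on the log2(signal + 16) scale used throughout, so that B6 had 6.9 times the C3 signal. The order of strain means from the top was BXH19 (1084), BXH7 (1041), BXH14 (992.2), B6 (894.1), BXH2 (875.7), F1 (355.3), C3 (129.6), BXH4 (106.4), BXH9 (95.95), BXH10 (75.2), BXH6 (63.9) and BXH8 (51.4). Adjacent strains in this order had overlapping arrays, except on either side of the F1, where the gaps were 1.25 above and 1.35 below on the log2 scale. Neighbours within the high set and within the low set therefore could not be ordered beyond their spread, which was 0.51 within strains (residual SD, log2). The RI strains spanned 4.13 on that scale.

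In bulk lung RNA, fewer cells that express Trim34a and less RNA in each cell cannot be told apart. Whether the probes of any probe set bind C3 and B6 transcripts equally well was not tested. A lower signal is therefore not in itself a lower RNA level. The F1 signal of 355.3 ± 3.11 was 0.694 of the linear mean of both progenitors (511.9) and 0.03 above their mean on the log2 scale. On a scale from 0 at the B6 mean to 1 at the C3 mean (log2), the F1 stood at 0.49. BXH2, BXH7, BXH14 and BXH19 stood between -0.11 and 0.01, at the B6 level. BXH4, BXH6, BXH8, BXH9 and BXH10 stood between 1.1 and 1.46, at or below the C3 level, where signals are dim and the log2 scale stretches small differences.

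The other probe set of Trim34a, 1426093_at, was dim, with a mean signal of 57.78, and ran the opposite way. It had 74.8 and 61.6 in C3 lungs and 30.6 and 20.2 in B6 lungs, a C3 minus B6 difference of 1.03 (SE 0.36), which became 1.41 with an offset of 1 and 0.57 with an offset of 64. The F1 again lay between, at 42.9 and 44.5. Signals were 17.4 and 28.6 in BXH2, 23.6 and 34.3 in BXH7, 14.5 and 11 in BXH14, and 42.6 and 4.8 in BXH19. They were 137.4 and 79 in BXH4, 96.1 and 91.4 in BXH6, 90.1 and 72.7 in BXH8, 98.1 and 119.2 in BXH9, and 73.8 and 77.6 in BXH10. All 9 RI strains stood nearer the same progenitor as on the bright probe set, but with the high and low strains exchanged, and no array of one set overlapped the other. Over the 12 strain means, Pearson's r between both Trim34a probe sets was -0.94, over points that share the same arrays. Which part of the transcript each probe set reads was not tested, and a single direction for Trim34a rests on the brighter one.

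Both probe sets annotated to Trim34a and Trim34b followed the brighter Trim34a probe set and are assigned to neither gene. Probe set 1421550_a_at had 253.2 and 202.2 in C3 lungs and 988.7 and 570.8 in B6 lungs, a difference of -1.66 (SE 0.21), with 341.9 and 416.1 in the F1. The B6 arrays were far apart here, and the difference was -1.28 without B6 replicate 1 and -2.05 without B6 replicate 2. Its r with the bright Trim34a probe set was 0.95 over 12 strain means. Probe set 1426092_a_at was dim, with 43.8 and 34.2 in C3 lungs and 106.1 and 117.6 in B6 lungs, a difference of -1.22 (SE 0.38) that shrank to -0.77 with an offset of 64. On both, all 9 RI strains stood nearer the same progenitor as for Trim34a.

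Trim30a, the TAB2 and TAB3 antagonist, had smaller differences. Its 3 probe sets disagreed, and the largest difference was on the probe set it shares with Trim30d, a near copy 2 genes further on. That probe set, 1456494_a_at, had 204.6 and 215.5 in C3 lungs and 556.7 and 473.6 in B6 lungs. The signal fell by 1.23 in C3 (log2, SE 0.24, limma, Benjamini-Hochberg adjusted p = 0.0117), with no overlap between arrays. Over all 22626 probe sets tested, 1.18% passed in this comparison, 0.676% as lower in C3, and 33.7% had C3 and B6 arrays that did not overlap. The call was lost without B6 replicate 1 (adjusted p = 0.145), B6 replicate 2 (0.0512), C3 replicate 1 (0.0903) or C3 replicate 2 (0.0805), and in a fit of only these 4 arrays (0.091).

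The F1 had 349.6 and 282.3 on the shared Trim30a and Trim30d probe set, between both progenitors. Among RI strains it was highest in BXH19, with 685.7 and 677.6, a mean of 681.7 against 329.2 in the other 8 RI strains (difference 1.12, SE 0.18, limma, adjusted p = 0.0034, where 0.72% of all probe sets passed). BXH19 was picked as the highest of the 9 RI strains, a choice that this adjustment does not count. The lowest RI strain was BXH6, with 169.5 and 254.2. It differed over the 12 strains (limma F test, adjusted p = 0.000587, where 5.48% of all probe sets passed) and over the 9 RI strains alone (adjusted p = 0.000721, where 5.44% passed). All 9 RI strains stood nearer the same progenitor as for Trim34a, and its r with Trim34a was 0.94 over 12 strain means.

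The probe sets that read Trim30a alone did not pass between the progenitors. On 1417961_a_at the C3 lungs had 557.8 and 658.4 and the B6 lungs 1070.5 and 766.8 (-0.57, SE 0.22, limma, adjusted p = 0.424). BXH19 was highest with 1014.4 and 1218.9, and the F1 lowest with 494.8 and 540.6, below both progenitors, though the F1 did not differ from their mean beyond the error (-0.51, limma, adjusted p = 0.655). The 12 strains gave an adjusted p of 0.0763 in the limma F test, and of 0.0491 when only the brightest 60% of probe sets were tested. On 1451860_a_at the C3 lungs had 456.7 and 337.3 and the B6 lungs 471.5 and 517.2 (-0.32, SE 0.20, limma, adjusted p = 0.832). Its F test over the RI strains passed (limma, adjusted p = 0.0383), with BXH4 highest at 671.2 and 722.3 and BXH8 lowest at 369.6 and 307.6. That call was lost in 13 of the 24 fits that left out a single array (adjusted p up to 0.113, without BXH4 replicate 2), with both BXH4 arrays left out (0.174), in a fit of only the RI arrays (0.0717) and without the mean-variance trend (0.0686). The arrays whose loss ended it were either array of B6, F1, BXH4, BXH7, BXH8 or BXH19, and BXH2 replicate 1.

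Trim21, the antibody receptor, had a small difference on 1 of its 2 probe sets. On 1448940_at the C3 lungs had 617.4 and 485.9 and the B6 lungs 841 and 771.3 (-0.54, SE 0.17, limma, adjusted p = 0.225), with 689.1 and 502.3 in the F1. BXH7 was highest with 972.6 and 819.5, and BXH10 lowest with 538.5 and 476.1. The 12 strains differed (limma F test, adjusted p = 0.0429), which was lost with both BXH4 arrays left out (0.0537), in 17 of the 24 fits that left out a single array, among them BXH7 replicate 1 (0.0906), and without the mean-variance trend (0.0942). It was kept without either array of BXH9, BXH14 or F1 and without C3 replicate 1, and ended without any other single array. In the order of mean log2 levels only 1 adjacent pair, BXH4 above BXH6, had arrays that did not overlap, with the F1 (9.24) next to BXH6 (9.25). On the other Trim21 probe set, 1418077_at, the means were 458.4 ± 16.8 in C3 and 458.3 ± 24.6 in B6 (SD, n = 2 each), and no test passed.

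Trim25, the RIG-I ligase on chromosome 11, passed no progenitor comparison on any of its 3 probe sets. Means were 1349 in C3 and 1375 in B6 on 1419879_s_at (-0.03, SE 0.16), 1114 in C3 and 997.3 in B6 on 1425974_a_at (0.16, SE 0.13), and 294.5 in C3 and 324.1 in B6 on 1426415_a_at (-0.15, SE 0.24). The limma adjusted p-values were 1.0, 0.945 and 1.0, and none of the 3 passed over the 12 or the 9 strains. The F1 means were 1506, 1052 and 310.9. Across the RI strains the Trim25 probe sets spanned 0.59, 0.59 and 1.11 on the log2 scale, beside the 4.13 of Trim34a.

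**Figure D2:**
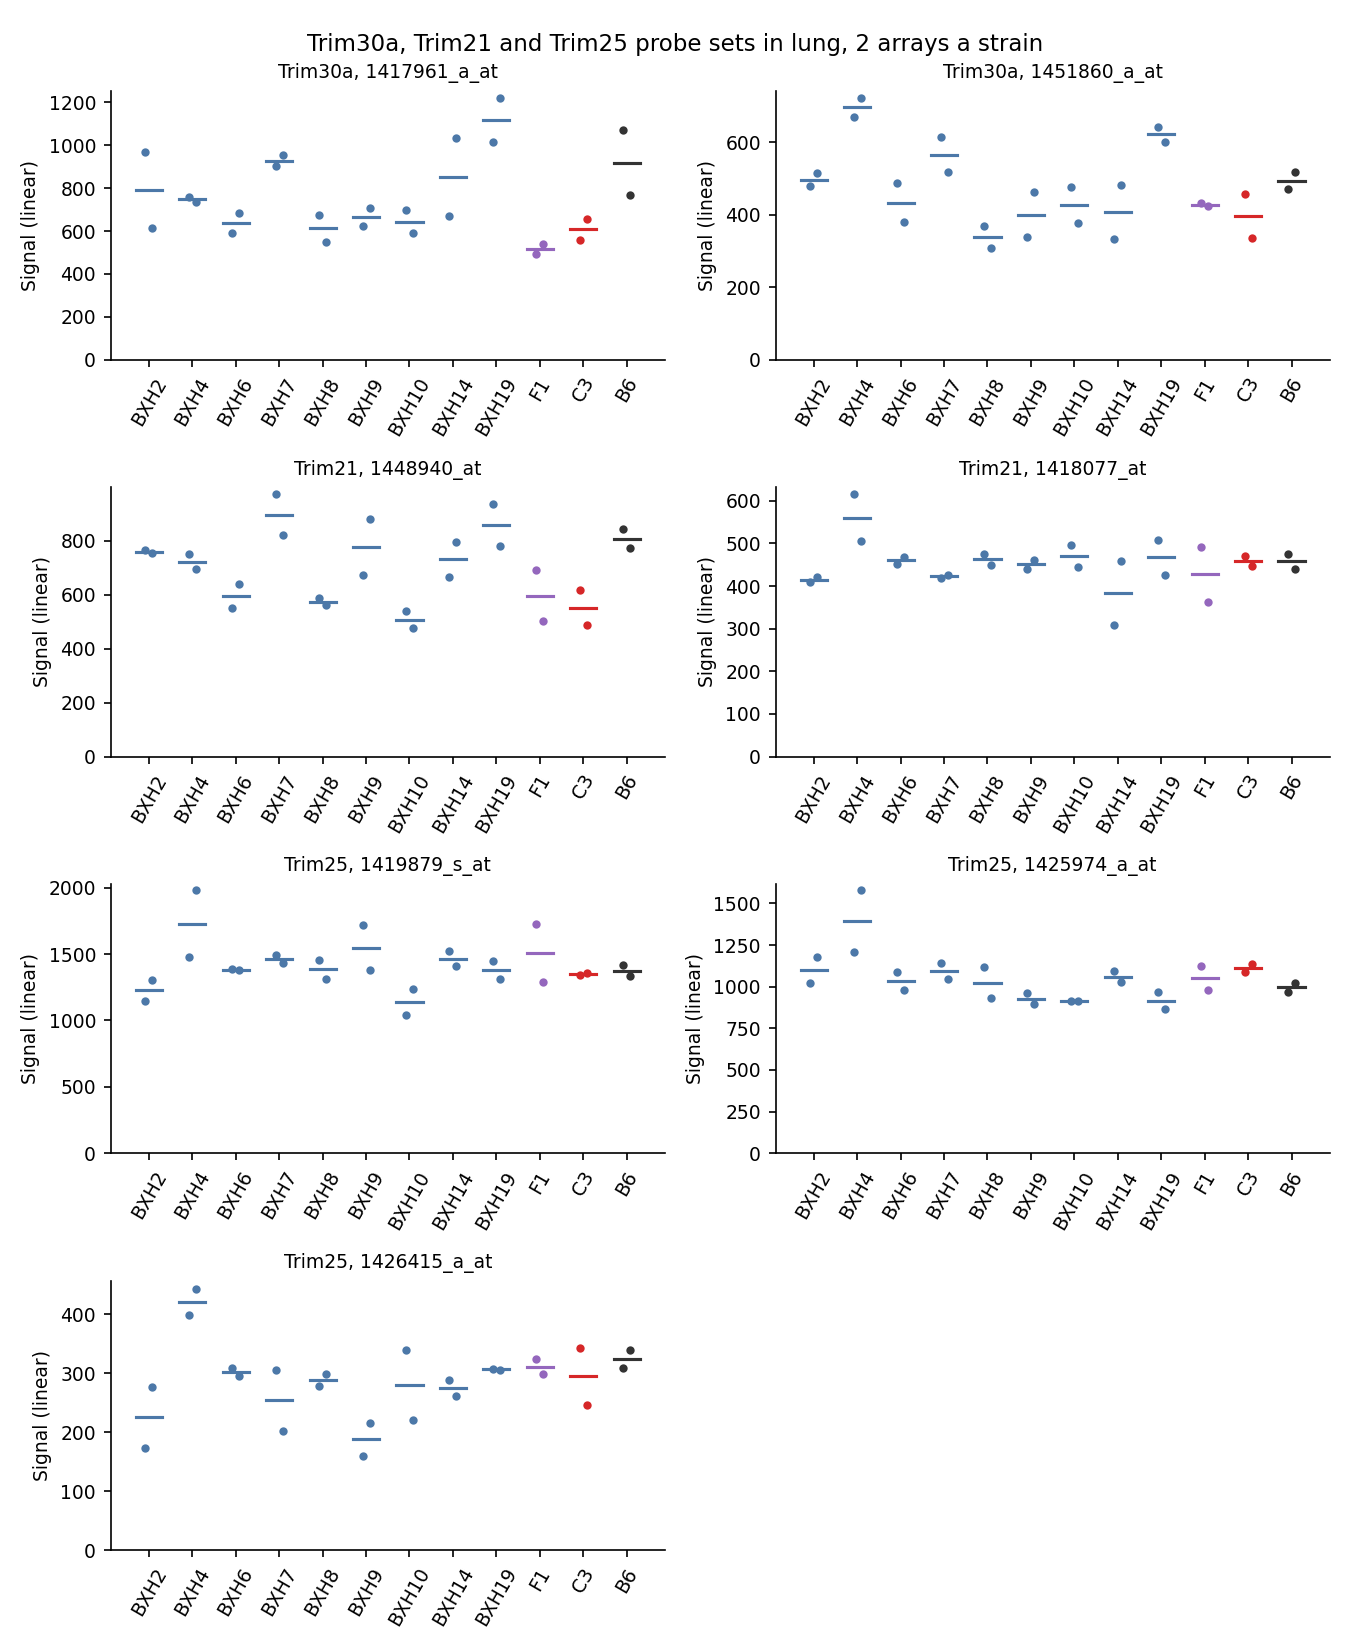
Signal of the 7 probe sets that read Trim30a, Trim21 or Trim25 alone, in every strain (linear axes from 0, points are arrays, bars are strain means of 2 arrays). BXH4 has the highest mean on all 3 Trim25 probe sets, at 1729, 1395 and 421, and the C3 and B6 bars on Trim25 lie close together.

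By strain means, BXH4 was the highest of the 12 strains on all 3 Trim25 probe sets, on 1 of 2 for Trim21 and on 1 of 2 for Trim30a. How often BXH4 was highest over all probe sets was not counted, so this is no result about these genes. On Trim25 1419879_s_at its arrays overlapped those of BXH9, the next in order. Against the other 8 RI strains, Trim25 1425974_a_at was higher, with 1208.5 and 1580.6 in BXH4, a mean of 1395 against 1009 (0.45, SE 0.10, limma, adjusted p = 0.0184, where 4.15% of all probe sets passed). The call was lost without BXH4 replicate 2 (0.26, adjusted p = 0.369). Trim25 1426415_a_at had 399.4 and 442.6 in BXH4, a mean of 421 against 265 (0.66, SE 0.18, limma, adjusted p = 0.0511). The brightest, Trim25 1419879_s_at, had 1729 against 1373 (0.32, SE 0.12, limma, adjusted p = 0.136), and Trim21 1418077_at had 560.7 against 441.7 (0.33, SE 0.13, limma, adjusted p = 0.168). Trim30a 1451860_a_at had a mean of 696.8 in BXH4 against 461.6 (0.61, SE 0.15, limma, adjusted p = 0.0321), lost without BXH4 replicate 1 (0.140) or BXH4 replicate 2 (0.269) and without the mean-variance trend (0.0503). The BXH4 contrast as a whole depended on both arrays, with 939 calls over all probe sets but 371 without BXH4 replicate 1 and 238 without BXH4 replicate 2.

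By mean log2 level, markers of leukocytes and of endothelium were also highest in BXH4. All 7 leukocyte genes listed (Ptprc, Cd3e, Cd79a, Cd68, Lyz2, Itgam and Nkg7) were measured and none was at 0. Their mean log2 level was 9.69 in BXH4 and between 8.71 and 9.3 in the other 11 strains, whereas their summed signal, 18880 and 15500 in BXH4, was about as high in BXH19, at 15810 and 18650, within a range of 12250 to 18880 over all arrays. Of the 7, Nkg7 of natural killer and cytotoxic T cells passed as higher in BXH4 than in the other 8 RI strains, and the median difference was 0.49. The 3 endothelial genes had a mean log2 level of 11.98 in BXH4 and between 11.53 and 11.96 in the other 11 strains. Their median difference was 0.4 over 4 probe sets, none of which passed in that limma contrast. An unadjusted limma p under 0.05 was found for 3 of the 4. The share over all probe sets is not given, so that count says little about endothelium. The part of these markers in the Trim25 and Trim30a values was not tested. The lung epithelial markers, among them surfactant genes, were all present, with a summed signal of 53430 to 82230 over the arrays, as was the endothelial list with 8164 to 13580.

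Of the other TRIM genes, 38 were read by 59 probe sets of their own. Between the progenitors 2 of the 59 passed, both lower in C3 (3.39% against the 1.18% of all probe sets), and their median difference was -0.04, beside -0.01 over all probe sets. Over the 12 strains 5 passed (Trim12a, Trim16, Trim3, Trim30d and Trim54), or 8.47% against 5.48% of all probe sets. Over the 9 RI strains 4 passed (Trim12a, Trim16, Trim30d and Trim54), or 6.78% against 5.44%, so that both shares lay near that of the whole array. No TRIM probe set passed in the comparison of the F1 with the progenitor mean by limma, where 0.0619% of all probe sets did and 7 of all 71 TRIM probe sets had an unadjusted p under 0.05.

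**Figure D3:**
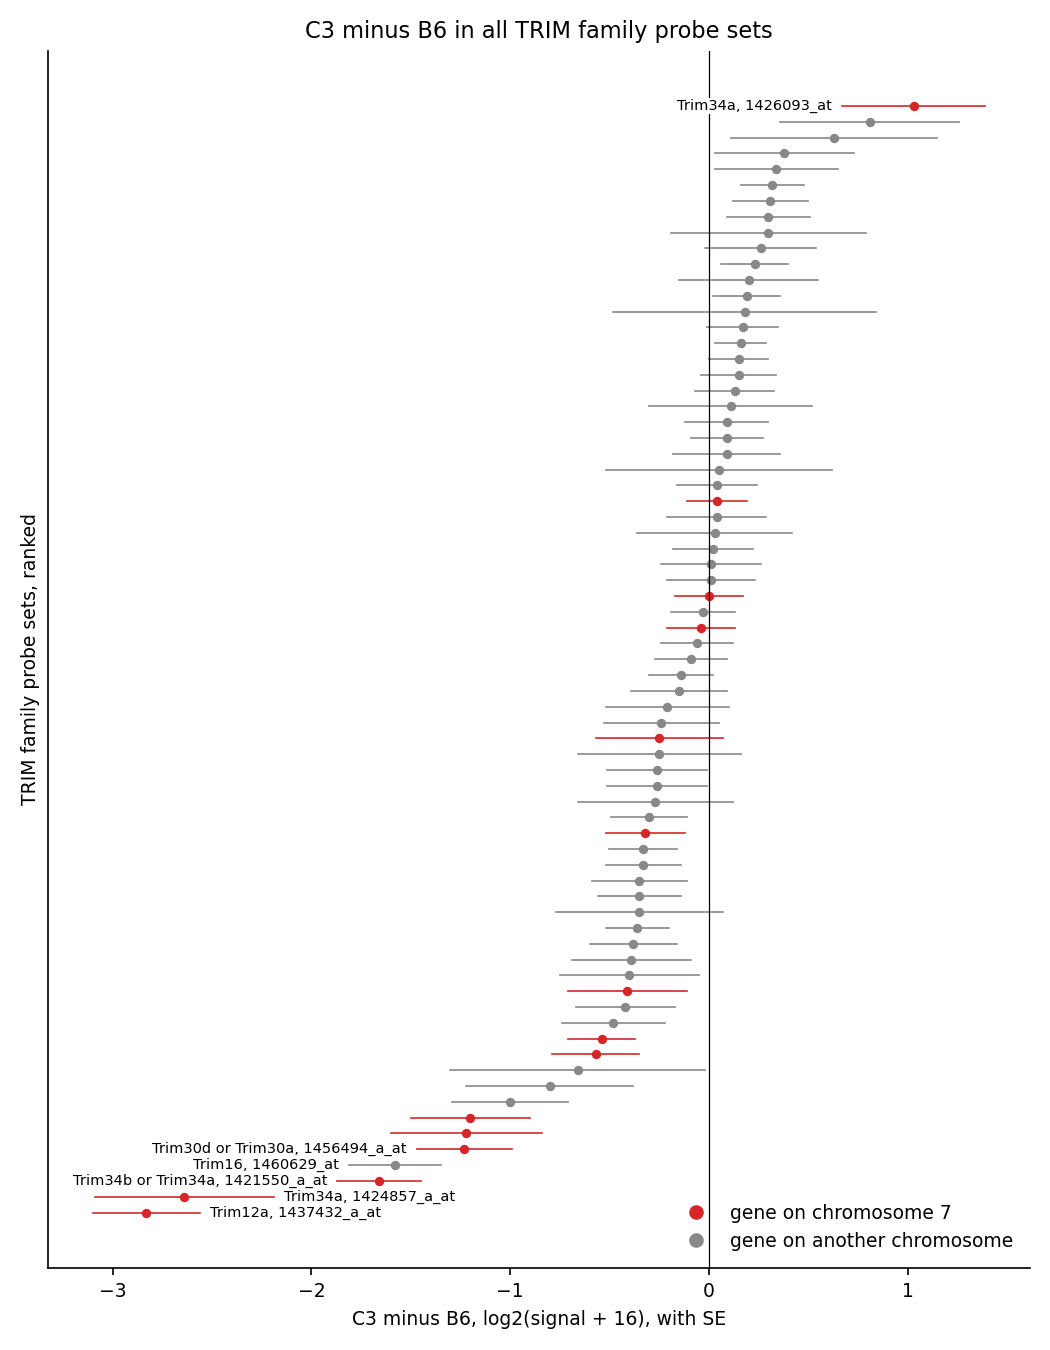
C3 minus B6 differences of all 71 TRIM family probe sets, ranked (log2(signal + 16) scale, bars are SE, red for genes on chromosome 7). Names mark the 5 lowest differences and the highest, and 4 of those 5 are read from the chromosome 7 cluster, with Trim16 from chromosome 11.

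Trim12a, a relative of human TRIM5 that lies 4 genes from Trim34a, also had a wide difference. Its probe set 1437432_a_at had 2.9 and 2.3 in C3 lungs, among the lowest signals of the array, and 97.6 and 139 in B6 lungs. The signal fell by 2.83 in C3 (log2, SE 0.27, limma, adjusted p = 7.71e-06). That size depends on the offset (-5.03 with an offset of 1 and -1.44 with 64), while the call does not. Its place beside the bright Trim34a probe set turns with the offset too, since that one gave -2.77 with an offset of 1 and -2.30 with 64. The F1 had 68.4 and 86.1, nearer B6, at 0.18 on the scale from B6 to C3. It did not differ from the progenitor mean beyond the error (0.90, SE 0.23, limma, adjusted p = 0.394). That difference was 1.92 with an offset of 1 and 0.36 with 64. Signals were 205.1 and 187.3 in BXH2, 215.1 and 161.8 in BXH7, 221.4 and 151.2 in BXH14, and 170.3 and 153.5 in BXH19. They were 3.4 and 18.6 in BXH4, 2.5 and 1.7 in BXH6, 2.2 and 2.2 in BXH8, 4.2 and 5.1 in BXH9, and 3.4 and 2.2 in BXH10. The same 4 RI strains were high as for Trim34a, and the strains differed in both F tests (limma, adjusted p = 8.19e-09 over 12 strains and 7.4e-09 over the RI strains). Its r with Trim34a was 0.98 over 12 strain means. A second, dim Trim12a probe set, 1420648_at, had means of 54.95 in C3 and 67.95 in B6 and passed no test.

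Trim30d, read alone by the dim 1438716_at, was high in fewer strains. It had 8.4 and 4.5 in C3 lungs and 19.9 and 57.5 in B6 lungs (-1.20, SE 0.30, limma, adjusted p = 0.0695), and passed without B6 replicate 1 (-1.72, adjusted p = 0.0105). Of the RI strains BXH7 had 40.2 and 46.9 and BXH19 43.6 and 28.4, and the other 7 had means from 5.5 to 13.15. The F1 had 6.7 and 8.7, at the C3 level. The limma F test gave an adjusted p of 0.0123 over the 12 strains and 0.0195 over the RI strains, the second lost without BXH7 replicate 1 (0.0657), BXH7 replicate 2 (0.0883) or BXH19 replicate 1 (0.0606). So by strain means 7 of 9 RI strains stood nearer the same progenitor as for Trim34a, with BXH2 and BXH14 the exceptions. The side of BXH2 is unsure, since its arrays had 6.9 and 19.4, the second close to the lower B6 array.

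Trim16, a TRIM protein without a RING domain that acts in autophagy of damaged membranes, showed 2 levels with other strains high. On 1460629_at, from chromosome 11, the C3 lungs had 248.9 and 237.9 and the B6 lungs 810.4 and 713.2. The signal fell by 1.58 in C3 (log2, SE 0.23, limma, adjusted p = 0.000906). Its means were 678.9 in BXH2, 676.8 in BXH4, 647.1 in BXH9, 671.8 in BXH14 and 772.9 in BXH19, and 260.9 in BXH6, 220.9 in BXH7, 258.6 in BXH8 and 225.3 in BXH10. BXH4, BXH7 and BXH9 thus stood on the other side than for Trim34a. The second Trim16 probe set, 1452362_at, had 661.1 in C3 and 855.7 in B6 (-0.36, SE 0.16, limma, adjusted p = 0.575).

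**Figure D4:**
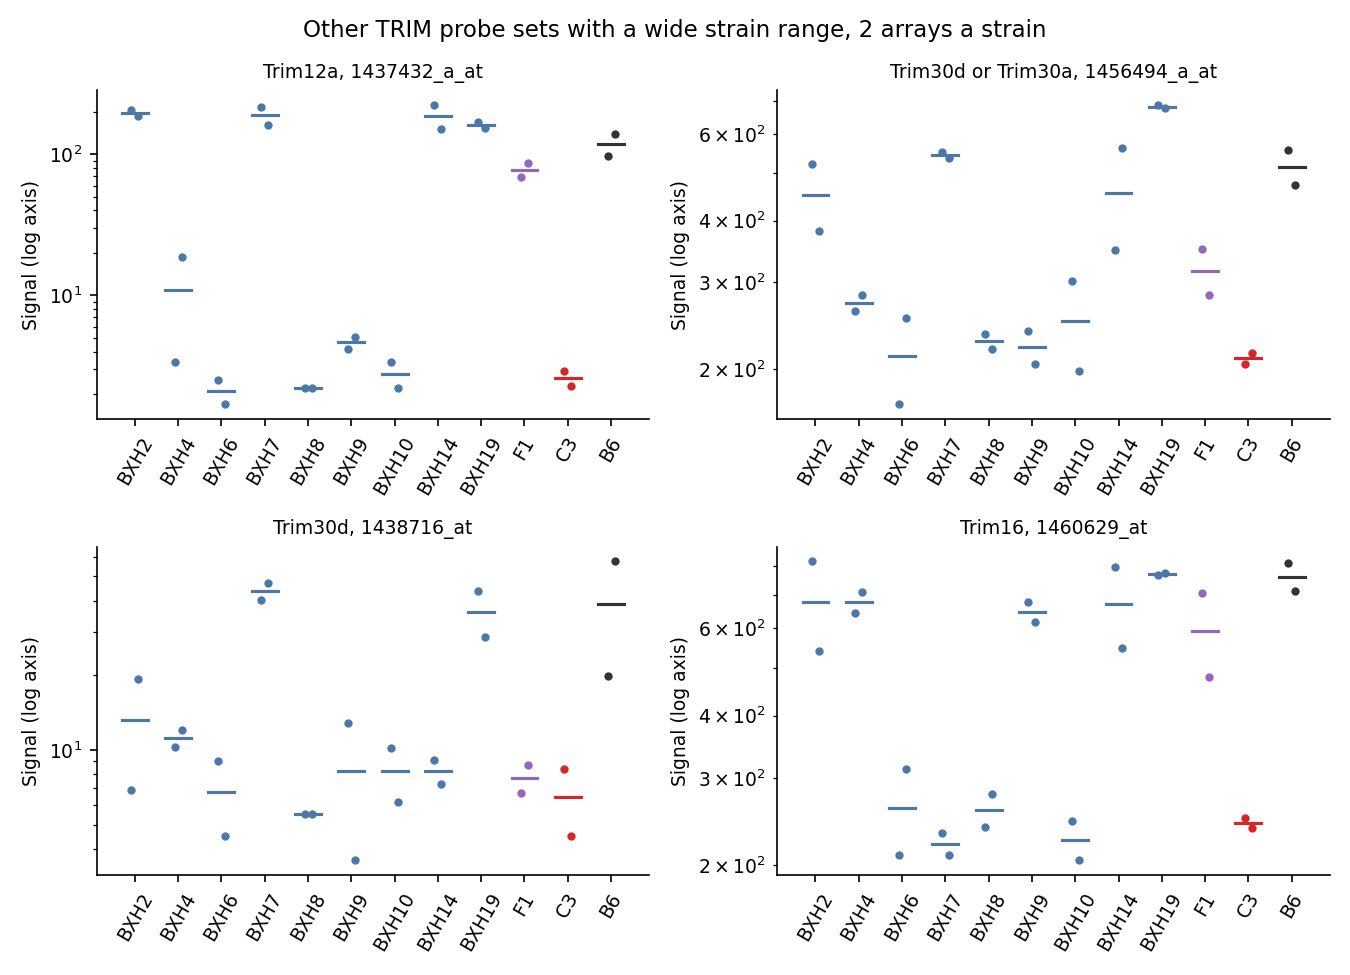
Signal of Trim12a, the probe set shared by Trim30a and Trim30d, Trim30d alone and Trim16 in every strain (log axes, points are arrays, bars are strain means of 2 arrays). Trim12a separates BXH2, BXH7, BXH14, BXH19, F1 and B6 from the rest, whereas Trim16 is high in BXH4 and BXH9 and low in BXH7.

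**Figure D5:**
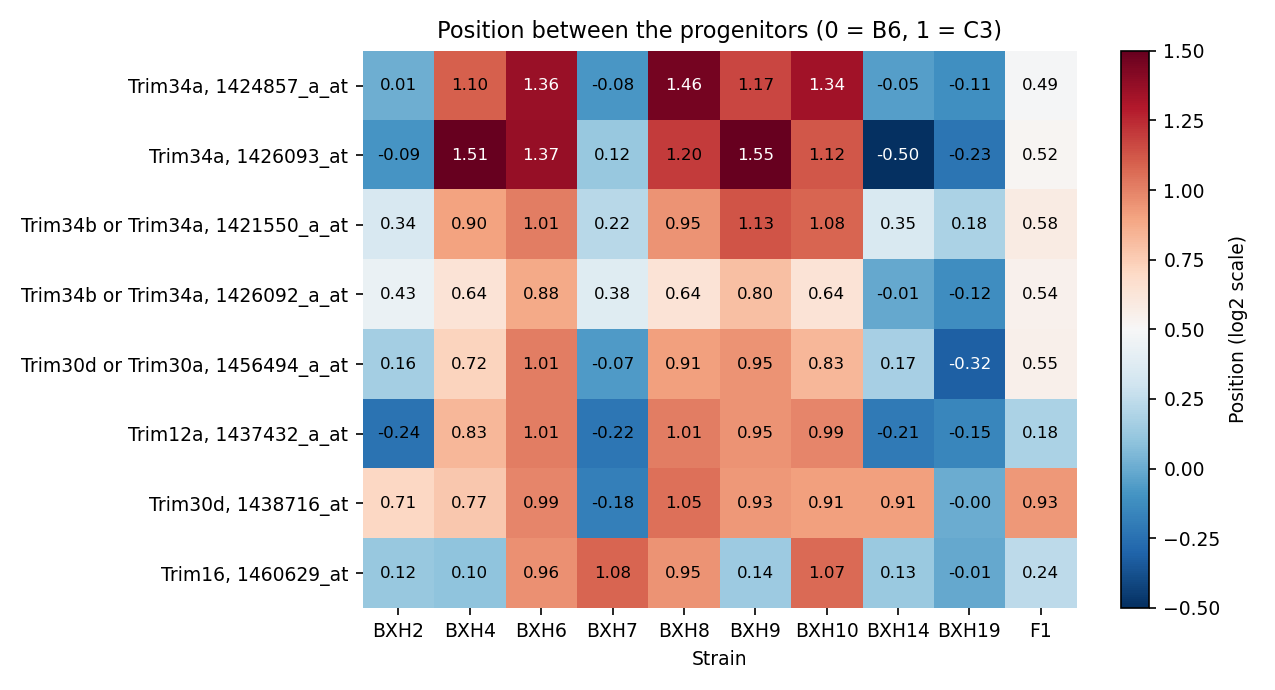
Position of each RI strain and the F1 between the progenitors for 8 TRIM probe sets with a progenitor difference over 1 on the log2 scale (0 is the B6 mean, blue, and 1 the C3 mean, red). They were taken from the members, the TRIM genes of chromosome 7 and those that passed a main test. Other TRIM genes, such as Trim59 at -1.0, were not considered. BXH2, BXH7, BXH14 and BXH19 lie on the B6 side in the first 6 rows, while Trim30d and Trim16 have other patterns.

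The remaining TRIM genes of chromosome 7 differed less or not. Trim3, a ligase best known from neurons, passed over the 12 strains (limma F test, adjusted p = 0.0316), with 1515 in C3 and 1476 in B6 and the lowest level in BXH8 (966.5). That call was lost with median centring (0.0645), without the mean-variance trend (0.0911), with both BXH4 arrays left out (0.0542) and in 11 of the 24 fits that left out a single array (up to 0.0708, without BXH8 replicate 1), namely either array of BXH4, B6 replicate 2, C3 replicate 1, F1 replicate 2, or replicate 1 of BXH2, BXH7, BXH8, BXH9, BXH14 or BXH19. Trim28, the corepressor of KRAB zinc finger proteins, had 1218 in C3 and 1250 in B6, and Trim6, 2 genes before Trim34a, had 77.2 in C3 and 108.1 in B6, and neither passed a test. In the stretch from Trim21 to 25 genes past Trim34a, 21 of 159 annotated genes had a probe set, 34 probe sets in all. Leaving aside the 4 annotated to Trim34a, 2 of 30 passed for C3 minus B6, where 1.18% of all probe sets did. In each F test 4 of the 30 passed, where 5.48% of all did over the 12 strains and 5.44% over the RI strains. Every one of the 30 that passed a test read a TRIM gene. The 21 that read no TRIM gene, mainly olfactory receptors and haemoglobin genes, were mostly dim, with 3 in the brightest 60% of the array, so they are a weak comparison.

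Trim54, a muscle ring finger ligase of striated muscle on chromosome 5, was highest in BXH9 and lowest in BXH6. It had 160.1 and 138.2 in BXH9 and 12.4 and 4.1 in BXH6 (limma F test over 9 RI strains, adjusted p = 0.0178, or 0.0591 without BXH9 replicate 1). Over the 12 strains the adjusted p was 0.0386 by the limma F test, and that call was lost with an offset of 1 (0.0898), quantile normalization (0.0669), median centring (0.0548) or no mean-variance trend (0.064). It was also lost in 15 of the 24 fits that left out a single array (up to 0.112, without BXH9 replicate 1), namely either array of BXH2, BXH6, BXH8, BXH9, BXH10, BXH19 or C3, and BXH4 replicate 2. The summed signal of 6 skeletal muscle genes (Acta1, Ckm, Myl1, Tnnt3, Mylpf and Atp2a1) was 17480 and 29080 in BXH9 and 1733 and 1042 in BXH6, within a range of 950.6 to 29080 over all arrays. The part of muscle RNA in the Trim54 values was not tested. Among RI strains high for Trim34a, the muscle sum was 16750 and 20310 in BXH2 and 1110 and 1518 in BXH7. It was 9060 and 1416 in BXH14 and 2183 and 950.6 in BXH19. Among those low for Trim34a, besides BXH9 and BXH6, it was 5668 and 1003 in BXH4 and 22620 and 19190 in BXH8. BXH10, also low for Trim34a, had 8232 and 1310. The C3 lungs had 1587 and 13570, far apart, the B6 lungs 14900 and 15420, and the F1 10350 and 11550. The part of muscle RNA in the Trim34a values was not tested.

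In lists of genes that act with these ligases, no probe set passed for C3 minus B6, where 1.18% of all probe sets did. With lists this short, the absence of calls says little about the pathways. Of 13 RIG-I pathway genes (23 probe sets), none passed for C3 minus B6 by limma, with 2 probe sets at an unadjusted p under 0.05. Irf7, the transcription factor at the end of that pathway, passed over the RI strains (limma F test, adjusted p = 0.00497), with 1405.4 and 880.5 in BXH4 against 256.8 and 395.5 in BXH14, the lowest. It no longer passed without BXH4 replicate 1 (0.0934) or with both BXH4 arrays left out (0.593). Sting1, the adaptor of DNA sensing, was the only other gene of the list to pass there (adjusted p = 0.031), and lost the call in a fit of only the RI arrays (0.0755), without the mean-variance trend (0.053), and in 8 of the 24 fits without a single array (up to 0.0768, without BXH19 replicate 1). Those 8 left out either array of BXH7, BXH14 or BXH19, BXH8 replicate 2 or BXH10 replicate 1.

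Of 24 interferon-induced genes (30 probe sets), none passed for C3 minus B6 by limma, with 4 probe sets at an unadjusted p under 0.05. The median difference over the 30 was -0.21, beside -0.01 over all probe sets. Over the 12 strains 7 of the 30 passed (23.3% against 5.48% of all): Bst2, Gbp3, Ifit3, Oas1a, Oas2, Oasl2 and Rsad2. Oas2, which makes the activator of RNase L, had 666.8 and 750.4 in BXH4 and 212.4 and 131.5 in BXH2 (limma F test over 12 strains, adjusted p = 0.000889). In the RI strains high for Trim34a, the Oas2 mean was 171.9 in BXH2, 446.9 in BXH7, 212.4 in BXH14 and 506.6 in BXH19. In the other RI strains it ran from 257 in BXH10 to 708.6 in BXH4. A link between Oas2 and Trim34a was not tested. Gbp3, a guanylate-binding GTPase, was highest in BXH7, with 805.9 and 605.7, and lowest in BXH10, with 247.7 and 252.6 (adjusted p = 0.00953 by the limma F test). Against the other 8 RI strains, 8 of the 30 probe sets were higher in BXH4 and none lower (26.7% against 4.15% of all), beside the higher leukocyte markers given above. With both BXH4 arrays left out, 5 of the 30 passed over the remaining 11 strains (16.7% against 4.42% of all) and 5 over the remaining 8 RI strains (16.7% against 3.97%).

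In the TAK1 and NF-kB pathway, where Trim30a acts on the TAB adaptors, 11 genes were measured (28 probe sets). None of the 28 passed for C3 minus B6 by limma, and 1 had an unadjusted p under 0.05. Map3k7, the gene of TAK1, passed over the RI strains (limma F test, adjusted p = 0.0472), and lost that call with both BXH4 arrays left out (0.0668), in a fit of only the RI arrays (0.114), without the mean-variance trend (0.0842) and with an offset of 64 (0.0545). It was also lost in 19 of the 24 fits without a single array (up to 0.151, without BXH8 replicate 2), and kept only without either array of BXH2 or BXH7 or without BXH14 replicate 1. Of 9 partners of Trim21 in ubiquitin transfer and degradation (21 probe sets), none passed any of the 4 tests by limma, with 1 at an unadjusted p under 0.05 over the 12 strains and 4 over the RI strains.

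Among 8271 genes in the brightest 60% of probe sets, the strain means most like those of the bright Trim34a probe set were of Fkbp7 (Pearson's r 0.83), Map4k5 (0.83), Ackr3 (0.79), Nmi (0.77), Sdc4 (0.76), Mrps14 (0.75), Stard10 (0.75) and Rab21 (0.74), each over 12 strains. The least like were Pold3 (-0.92), Oxsr1 (-0.88), Coq8b (-0.87) and Apod (-0.86). Of the ranked genes only Pold3 was beyond 0.9 in size, below the 0.98 of Trim12a, which was too dim to be ranked. Of these 12 genes, Stard10, Pold3 and Coq8b are on chromosome 7, and the share of chromosome 7 among all 8271 genes was not counted. All points share the arrays, and most of these genes changed little: Fkbp7 spanned 0.48 on the log2 scale over the strains, with 660.3 in C3 and 713.2 in B6.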

How the data were processed

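Lung RNA of 24 samples was hybridised to Affymetrix Mouse 430A arrays. Per the labels' protocols, Trizol was used for extraction, a T7-oligo(dT) primer for cDNA, and the cRNA was biotin-labelled. The authors' deposited table holds 1 linear intensity (signal) for each of 22690 probe sets and each array. How arrays were scaled, and with which software, is not given in the sources used here. Array medians lay between 239.3 and 269.9. With 2% trimmed at each end, array means lay between 498.1 and 499. The arrays thus already shared a common trimmed mean, and no further scaling was applied. Array number limits the precision, since each strain has 2.

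Gene symbols came from the platform annotation, in which 20380 probe sets have 1 symbol, 691 several and 1555 none. Probe sets with several symbols were assigned to no gene. The 64 control probe sets were left out, and log2(signal + 16) of the other 22626 was fitted with limma 3.58.1 in R 4.3.3, with the 12 strains as groups, a mean-variance trend and 12 residual degrees of freedom. Tests were C3 minus B6, the F1 against the progenitor mean (log2), an F test over 12 strains, an F test over the RI strains, and each RI strain minus the other 8. Within each, p-values were adjusted by Benjamini-Hochberg over all probe sets, with a threshold of 0.05. An RI strain named from its own contrast was picked for its high values, and the adjustment does not count that choice. Counts at an unadjusted p under 0.05 are given without the share over all probe sets, so they are no result about a list. Tested on simulated data for C3 minus B6 over 22626 probe sets, the fit recovered 47 of 100 changes of 1 and 92 of 100 changes of 2 (log2).

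The members and lists were chosen with earlier results of these data known, so Trim34a is described with no test. Named are all probe sets of the members, TRIM genes that passed a main test or lie on chromosome 7, the 8 most and 4 least like genes over strain means, genes from Trim21 to 25 genes past Trim34a that passed, and at most 4 passing genes of each list. Other names complete a count. Python 3.11.15 made the tables. Alternatives changed the scaling, offset, filter, probe sets per gene, trend, pairing and arrays.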

Additional observations from a re-analysis of the deposited data

How the results depend on the processing

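Each strain had only 2 arrays, so the spread is pooled over strains, and a lone array left after an omission is assumed to vary like the other strains. Dim probe sets (Trim34a 1426093_at, Trim34a or Trim34b 1426092_a_at, Trim12a, Trim30d) have sizes that move with the offset.

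The main counts of calls, given first for all probe sets and then for the 71 TRIM family probe sets, were 268 and 5 for C3 minus B6, 14 and 0 for the F1, 1240 and 10 over the 12 strains, and 1231 and 9 over the RI strains. The TRIM counts include 2, 3 and 3 probe sets annotated to Trim34a, for C3 minus B6 and the F tests over 12 and 9 strains, which carry no test of their own. With 1 probe set per gene they were 142 and 1, 3 and 0, 857 and 6, and 777 and 4, where fewer probe sets were tested. With only the arrays compared they were 74 and 3 for C3 minus B6, 1 for the F1, and 931 and 9 for the RI strains. In the brightest 40% of probe sets C3 minus B6 gave 166 and 3, and the RI strains gave 5 TRIM probe sets. Without the mean-variance trend the F1 gave 6. The cause of this last change was not tested. Leaving out a single array gave 146 to 276 for C3 minus B6 (TRIM 4 to 5), with 154 without B6 replicate 1, 153 without B6 replicate 2 and 146 without C3 replicate 2. It gave 2 to 15 for the F1 (TRIM 0), 1001 to 1318 over the 12 strains (TRIM 7 to 13), 925 to 1322 over the RI strains (TRIM 7 to 11), and 238 to 1066 for BXH4 minus the other RI strains, where the main count was 939. For the F1 the count was 2 without B6 replicate 1 or C3 replicate 2, 4 without B6 replicate 2 or either BXH6 array, 7 without either BXH19 array or F1 replicate 1, and 8 without F1 replicate 2.

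The replicate numbers showed no pairing common to all strains. Replicate 1 minus replicate 2 correlated between strains at -0.243 to 0.253 over 66 pairs of strains, with a median of -0.007 and 13 pairs over 0.1. A batch shared by some of the arrays was not tested. With a replicate block the counts were 259 and 5 for C3 minus B6, 14 and 0 for the F1, 1191 and 9 over the 12 strains and 1191 and 8 over the RI strains. The block ended the calls of Trim30a 1451860_a_at (0.0512) and Map3k7 (0.0636) over the RI strains and of Trim54 (0.0553) over the 12 strains, put Sting1 past the threshold over the 12 strains (0.0206), and changed no other call of a named probe set. The fit with both BXH4 arrays left out and all alternatives for the BXH4 contrast were chosen after seeing the data. With both left out, C3 minus B6 gave 270 and 5, the remaining 11 strains 999 and 8 and the remaining 8 RI strains 899 and 8. Of all values recomputed, none that was called changed sign, and 40 uncalled differences did.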
